A study of Mus musculus with 3 samples.

Results

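The 30 genes described here encode enzymes and regulators of cholesterol and fatty acid synthesis. They were chosen by symbol from a list of such genes, with earlier results of these data known. Unique molecular identifiers (UMIs) each stand for 1 captured mRNA molecule. The rule otherwise asked only for 10 or more UMIs over the 3 libraries, which all 30 had. The matrices list 27998 genes, of which 12361 reached that number. By role, 7 are early mevalonate enzymes, 11 are sterol branch enzymes, 5 sense or transport sterols, and 7 make or desaturate fatty acids.

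Single cells of C57BL/6J mouse bone marrow were profiled from 3 sorted populations along the path to B cells, with 1 library each and the droplet-based Chromium 3′ v2 chemistry. LMPP (lymphoid-primed multipotent progenitors) were gated as cKit+Sca1+Flt3+IL7Ra-B220-, CLP (common lymphoid progenitors) as cKit+Sca1+Flt3+/-IL7Ra+B220-, and pro-B cells as cKit+Sca1-Flt3-IL7Ra+B220+. The labels name no treatment, transgene or deletion for these 3 populations. The sources used here do not give the age or number of mice, and the study's cultured iLS cells were left aside. As each population is 1 library, no difference between populations has a replicate check, droplet run and population cannot be told apart, and no p-value is given. Every interval below is a 95% interval that covers counting error only.

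The mevalonate pathway builds isoprenoid units from acetyl-CoA, and the sterol branch joins them into squalene and turns that into cholesterol. When sterols in the endoplasmic reticulum are low, the escort protein Scap carries the SREBP proteins, encoded by Srebf1 and Srebf2, to the Golgi for activation, while Insig1 holds them back when sterols are high. SREBP proteins are known to activate most genes of both pathways, and dividing lymphocytes need both products for membranes.

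The promoter windows of the genes are shown first for 6 of them, picked by hand and not by a rule. They include Hmgcs1, the only searched gene that matched the longest motif below. Of the 30 genes, 23 were found in a RefSeq table of promoter windows (build GRCm38.p6), each window running from 250 bases before to 50 bases after a transcript start. The 250 bases before the start are printed 5′ to 3′ on the strand of the gene: Hmgcs1 at chr13:119690101-119690350 (plus strand), Mvk at chr5:114444019-114444268 (plus strand), Ebp at chrX:8193513-8193762 (minus strand), Srebf2 at chr15:82147019-82147268 (plus strand), Insig1 at chr5:28071162-28071411 (plus strand), Fasn at chr11:120824548-120824797 (minus strand). Capitals mark every match, on either strand, of CCAAT (the box known to bind the factor NF-Y), GGGCGG (the GC box known to bind Sp1), CACGTG (the E-box, which reads the same on both strands) and TCACNCCA (the core of a sterol regulatory element), extended by 1 base where the longer form TCACNCCAC is matched, as in Hmgcs1. A match on the other strand appears as its reverse complement, so that CCAAT is then read as ATTGG.
Hmgcs1: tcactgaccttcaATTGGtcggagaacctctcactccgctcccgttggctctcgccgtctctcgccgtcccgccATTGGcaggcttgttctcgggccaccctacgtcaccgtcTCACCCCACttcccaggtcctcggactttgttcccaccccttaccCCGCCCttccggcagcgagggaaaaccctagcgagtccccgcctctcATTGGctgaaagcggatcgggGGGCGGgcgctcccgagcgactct
Mvk: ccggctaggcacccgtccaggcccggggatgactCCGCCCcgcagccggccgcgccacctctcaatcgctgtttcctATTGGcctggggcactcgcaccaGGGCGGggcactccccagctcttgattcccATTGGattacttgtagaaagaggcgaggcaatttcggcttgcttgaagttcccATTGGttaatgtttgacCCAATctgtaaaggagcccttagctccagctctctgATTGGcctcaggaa
Ebp: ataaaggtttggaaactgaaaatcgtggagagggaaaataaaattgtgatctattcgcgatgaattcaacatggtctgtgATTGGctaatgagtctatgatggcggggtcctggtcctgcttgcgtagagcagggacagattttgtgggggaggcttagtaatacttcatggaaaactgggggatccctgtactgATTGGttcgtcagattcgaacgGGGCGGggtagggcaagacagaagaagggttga
Srebf2: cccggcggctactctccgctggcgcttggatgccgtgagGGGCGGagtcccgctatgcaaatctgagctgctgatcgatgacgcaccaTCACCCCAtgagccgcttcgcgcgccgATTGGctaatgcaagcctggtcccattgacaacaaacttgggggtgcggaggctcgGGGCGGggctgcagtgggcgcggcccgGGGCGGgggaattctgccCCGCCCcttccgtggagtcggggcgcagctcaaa
Insig1: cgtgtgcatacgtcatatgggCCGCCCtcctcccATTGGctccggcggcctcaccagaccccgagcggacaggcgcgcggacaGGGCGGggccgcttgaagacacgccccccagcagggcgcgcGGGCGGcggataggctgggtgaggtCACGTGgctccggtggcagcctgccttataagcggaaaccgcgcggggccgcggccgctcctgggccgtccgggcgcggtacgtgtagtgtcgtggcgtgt
Fasn: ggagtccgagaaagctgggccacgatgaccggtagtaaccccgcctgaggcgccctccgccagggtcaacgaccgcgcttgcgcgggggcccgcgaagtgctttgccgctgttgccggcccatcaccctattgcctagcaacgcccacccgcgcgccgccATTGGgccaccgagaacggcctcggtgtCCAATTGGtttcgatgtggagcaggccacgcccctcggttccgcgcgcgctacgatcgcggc

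CCAAT and GGGCGG were the most widely shared of these motifs. CCAAT was held in any window by 19 of the 23 genes (82.6%), against 41.1% of all 27025 genes in the table and 43.2% of the 9214 genes in it that had 10 or more UMIs. The 5 matches in the Mvk stretch and the overlapping pair in the Fasn stretch are examples. GGGCGG was held by 20 of 23 genes (87.0%), against 38.2% of all genes and 68.4% of those measured, and the upstream stretch of Fasn shown above has none. CACGTG was held by 5 of 23 genes (21.7%), against 8.09% and 11.9%, and among the stretches printed only that of Insig1 has it. The longer sterol element TCACNCCAC was held by 1 of 23 genes, Hmgcs1, against 1.44% of all genes. Without its last base (TCACNCCA, a form chosen after the first was seen, and which contains every match of the longer one) 3 genes held it, Hmgcs1, Msmo1 and Srebf2, or 13.0% against 4.97%. These are matches of letters in 1 window, not shown to be bound sites.

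The libraries were of similar depth per cell. After leaving out cells with under 500 genes or over 10% mitochondrial UMIs, 579 LMPP, 948 CLP and 1106 pro-B cells remained, with 4014657, 5967352 and 7367156 UMIs and a median of 6789, 6258.5 and 5687.5 UMIs per cell. Levels are given as CPM, the UMIs of a gene per 1000000 UMIs of the library. Pairs of libraries shared 1 to 3 barcode sequences. The labels were checked against markers: the B lineage factors Ebf1 and Pax5 had 3567 and 103 CPM in pro-B, while in LMPP Ebf1 had 7.97 CPM and Pax5 had no UMI. In CLP, 123 cells formed a plasmacytoid dendritic-like cluster and 13 an NK and innate lymphoid-like one, and in LMPP 20 cells formed a dendritic-like one. A pair of measures moved with the pro-B library: ribosomal protein genes took 29.3% of its UMIs against 40.6% in CLP and 42.7% in LMPP, and 18 G2/M genes summed to 4297 CPM against 340 and 233. Their part in the differences below was not tested. The ratios of the genes and role groups between whole libraries were repeated with ribosomal and mitochondrial genes left out of the total. They were also repeated within cells low in cycle transcripts.

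From CLP to pro-B the summed levels of the role groups differed in direction, and a few genes carried the lower sums. Enzymes of the 2 cholesterol groups summed to 221, 210 and 309 CPM in the order LMPP, CLP, pro-B, with pro-B 1.47-fold above CLP (log2 0.56, 0.46 to 0.66). The 5 sensing and transport genes summed to 146, 159 and 80.1 CPM, 1.98-fold lower in pro-B than in CLP (log2 -0.99, -1.14 to -0.84). Fatty acid genes summed to 158, 145 and 99.4 CPM, 1.46-fold lower (log2 -0.54, -0.69 to -0.40). Both lower sums rested on genes with large drops, which were left out in sums made after the data were seen. The genes left out had the lowest ratios of their groups, so a smaller difference in the rest follows in part from that choice. Acly, which had more CLP UMIs than Fasn, was kept. Srebf2 held 546 of the 946 CLP UMIs of the sensing and transport group, and the other 4 genes summed to 66.8, 67.0 and 58.9 CPM, with a pro-B over CLP log2 ratio of -0.19 (-0.39 to 0.01). Without Scd2 and Fasn, the other 5 fatty acid genes summed to 60.8, 60.8 and 66.6 CPM, with a ratio of 0.13 (-0.07 to 0.33). The median ratio of the fatty acid genes was 0.00, with 4 genes above 0 and 3 below. No test of a difference between the role groups was run. All 30 genes together differed little, with 525, 513 and 488 CPM. Without ribosomal and mitochondrial genes in the total, every pro-B over CLP ratio was lower by the same amount, and the log2 ratios became 0.26 for early mevalonate and 0.28 for sterol branch enzymes, -1.27 for sensing and transport and -0.83 for fatty acid genes, with the median of all genes at -0.38 in place of -0.09.

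**Figure D1:**
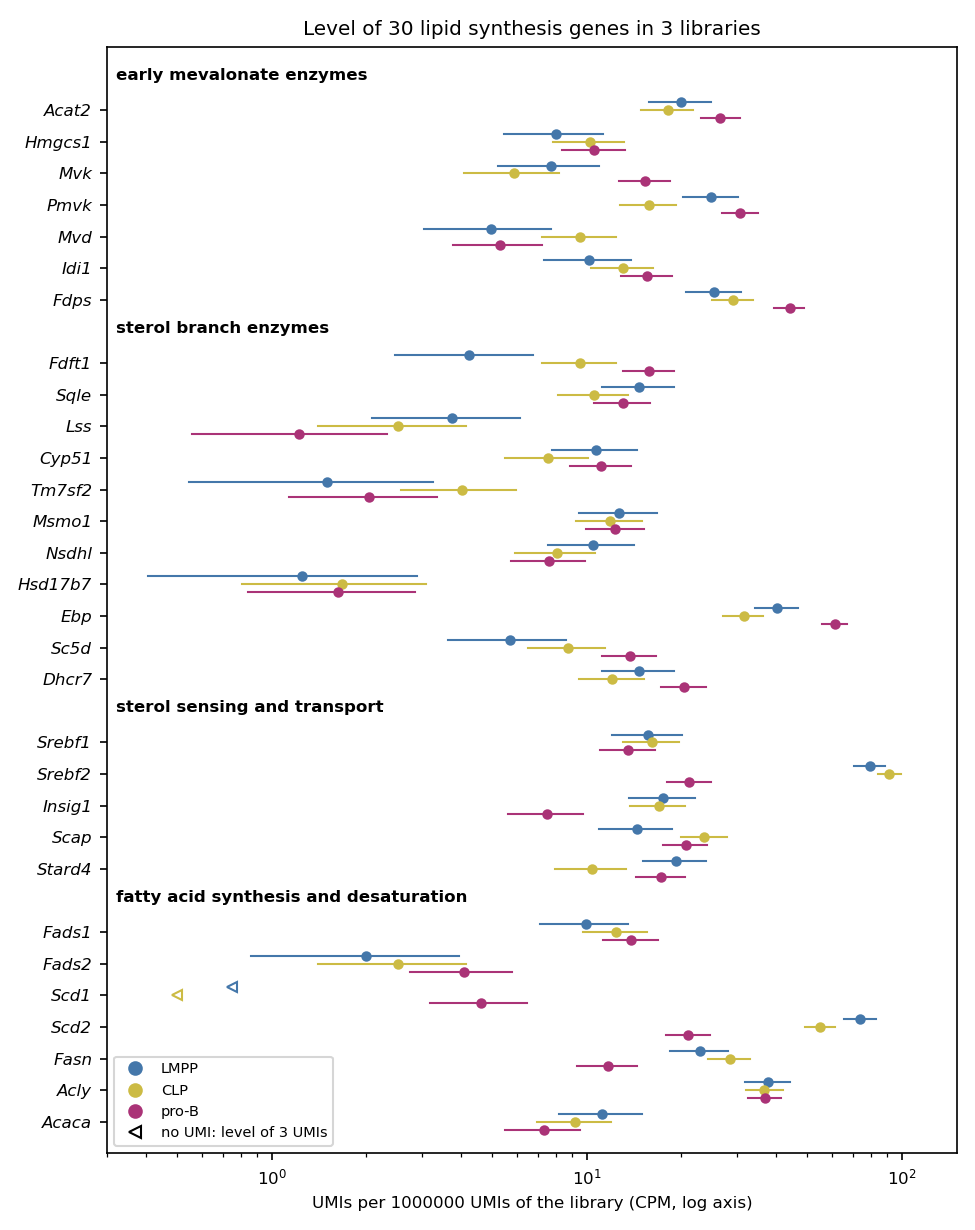
Level of each of the 30 genes in the 3 libraries, in CPM on a log axis, with genes grouped by role; points are the library sums, lines their 95% Poisson intervals, and open triangles the level that 3 UMIs would give where a gene had none. Srebf2, Insig1, Scd2 and Fasn are lower in pro-B than in the other 2 libraries, Mvk, Fdps and Ebp are higher, and Scd1 has UMIs only in pro-B.

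In counts of genes, pro-B over CLP put 2 of 30 at 2-fold or more above (Mvk and Scd1) and 5 at 2-fold or more below (Srebf2, Scd2, Fasn, Insig1 and Lss). Over all 12248 genes compared with 10 or more UMIs, 13.1% were that far above and 21.1% that far below, and both shares of the 30 were below these. The median log2 ratio of the 30 was 0.11, against -0.09 over all genes, and 18 of the 30 lay above 0. These values moved with the processing. In low-cycle cells alone (those with few S and G2/M transcripts) 7 of the 30 were that far above, against 18.9% of all genes, and 4 that far below, against 15.5%. With ribosomal and mitochondrial genes left out of the total, the median became -0.18, against -0.38 over all genes. Pro-B over LMPP, which shares the pro-B library, gave 4 higher (Fdft1, Sc5d, Fads2 and Scd1) against a background of 14.2%, and 4 lower (Srebf2, Scd2, Insig1 and Lss) against 21.9%, with a median of 0.35 against -0.08. In low-cycle cells its counts were 7 and 7, against 17.5% and 15.9%. CLP over LMPP gave 2 of 29 higher (Fdft1 and Tm7sf2) against 8.01%, and 0 lower against 6.97%, with a median of -0.04 against -0.01. By these counts the set differed least between the 2 progenitor populations, as all genes did. Of the genes at 20 CPM or more in the higher library the background was 4.11% above and 3.03% below for CLP over LMPP, with 0 of 8 members past 2-fold in either direction. For pro-B over CLP it was 15.7% and 11.6%, with 0 and 3 of 10 members, and for pro-B over LMPP 16.3% and 12.8%, with 0 and 2 of 10.

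**Figure D2:**
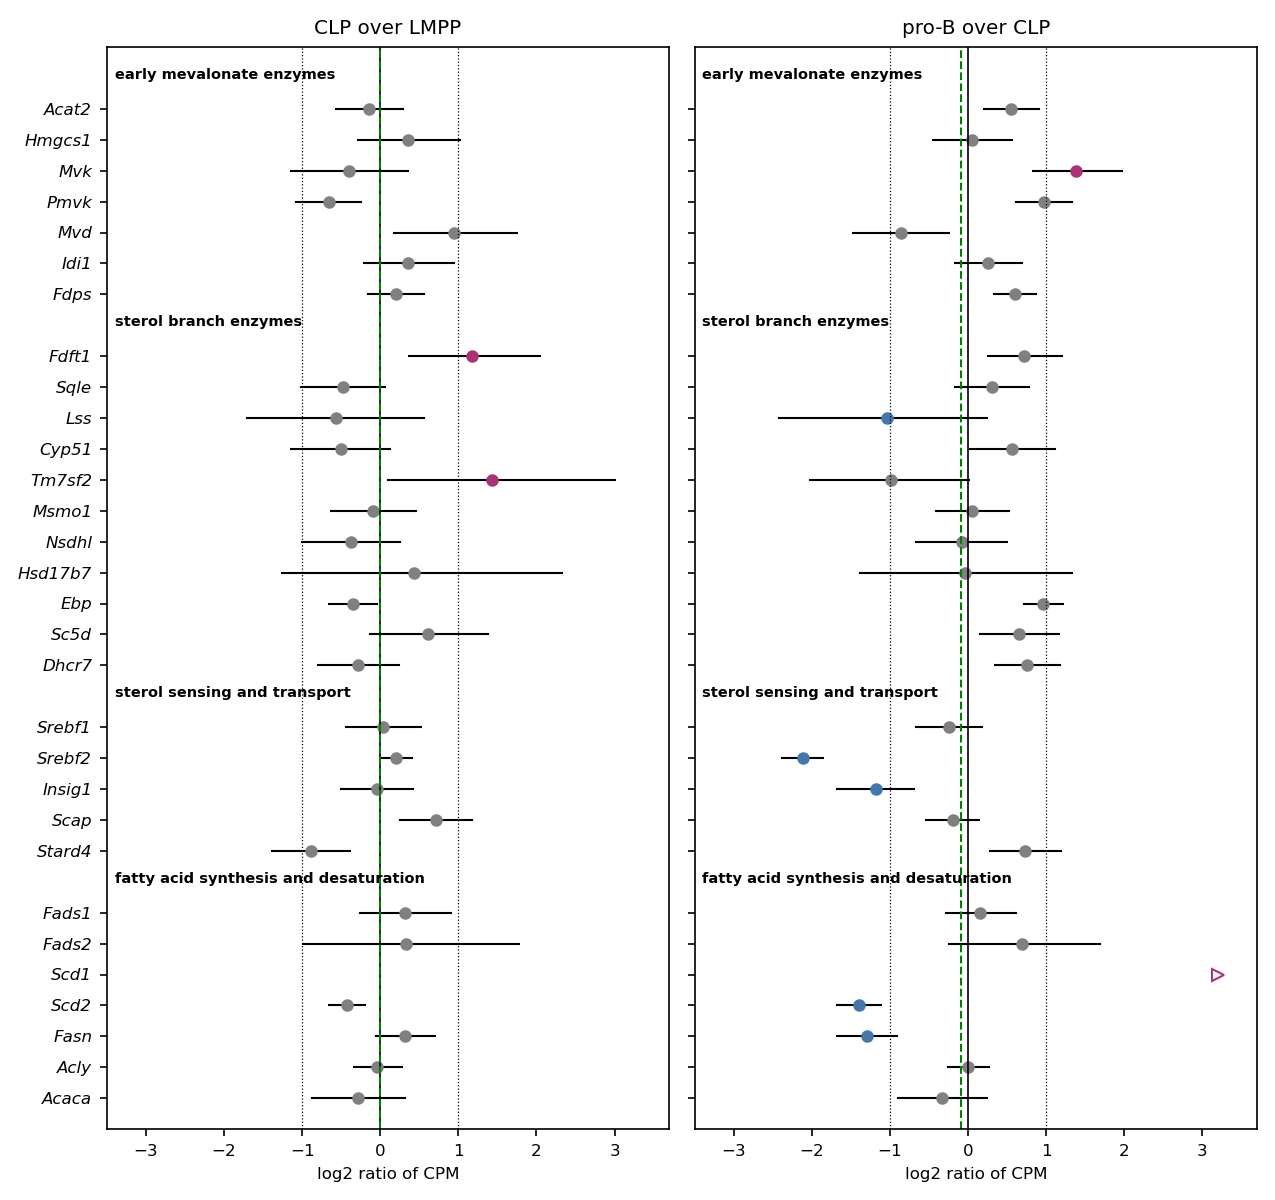
Log2 ratio of CPM for each gene, CLP over LMPP (left) and pro-B over CLP (right), with 95% exact intervals of the ratio of 2 Poisson counts; magenta and blue points lie 2-fold or more above and below, dotted lines mark 2-fold, the dashed green line is the median of all genes, and the triangle is the lower bound for Scd1. On the right, 6 of 7 early mevalonate enzymes lie above 0 while Srebf2, Insig1, Scd2 and Fasn lie below -1.

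Among the early mevalonate enzymes, Mvk differed most. Mvk, which phosphorylates mevalonate, had 31 LMPP, 35 CLP and 113 pro-B UMIs, or 7.72, 5.87 and 15.3 CPM. Its level was high in pro-B only, 2.62-fold above CLP (log2 1.39, 0.83 to 1.98) and 1.99-fold above LMPP, and the intervals of the 3 levels left pro-B apart from both progenitors. Pmvk, the next kinase of the pathway, had 24.9, 15.8 and 30.8 CPM, so that CLP was the low library (CLP over LMPP log2 -0.66, -1.08 to -0.24, and pro-B over CLP 0.97, 0.61 to 1.33). Fdps, which makes farnesyl diphosphate and stands at the branch between sterols and other isoprenoids, had 25.4, 29.2 and 44.1 CPM. Pro-B stood 1.51-fold above CLP (log2 0.60, 0.33 to 0.87). An exon of Fdps overlaps Gm43738 on the same strand, so reads of the pair cannot be told apart.

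Not every enzyme of this group was higher in pro-B. Mvd, the decarboxylase that turns phosphorylated mevalonate into the first isoprenoid unit, was high in CLP alone, with 4.98, 9.55 and 5.29 CPM (pro-B over CLP log2 -0.85, -1.48 to -0.24). Acat2, the cytosolic thiolase that starts the pathway, had 19.9, 18.1 and 26.6 CPM (pro-B over CLP log2 0.56, 0.21 to 0.91). Hmgcs1, the synthase of the following step, had 7.97, 10.2 and 10.6 CPM, and its interval for pro-B over CLP spanned 0 (0.05, -0.45 to 0.56). Idi1, which interconverts the basic isoprenoid units, had 10.2, 13.1 and 15.6 CPM, and its interval too spanned 0 (0.26, -0.17 to 0.69). The ratios of Hmgcs1 and Idi1 changed sign when ribosomal and mitochondrial genes were left out of the total.

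In the sterol branch the largest counts came from Ebp, a sterol isomerase. Ebp had 161, 188 and 452 UMIs, or 40.1, 31.5 and 61.4 CPM, with pro-B 1.95-fold above CLP (log2 0.96, 0.71 to 1.21). After every cell was thinned to 2000 UMIs, 8.73% of LMPP, 5.40% of CLP and 13.4% of pro-B cells had an Ebp UMI, so the order of the shares was that of the levels. Dhcr7, the reductase that yields cholesterol, had 14.7, 12.1 and 20.4 CPM (pro-B over CLP log2 0.75, 0.34 to 1.18). Sc5d, a sterol desaturase, was ordered along the path with 5.73, 8.71 and 13.7 CPM, but the intervals of neighbouring levels overlapped (CLP over LMPP 0.61, -0.13 to 1.38). Its log2 ratio was 0.65 (0.16 to 1.17) between CLP and pro-B and 1.26 (0.59 to 1.98) between LMPP and pro-B, the latter 0.93 without ribosomal and mitochondrial genes in the total.

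Between whole libraries Fdft1 followed the same order more clearly. Fdft1, the squalene synthase that commits farnesyl units to sterols, had 17, 57 and 116 UMIs, or 4.23, 9.55 and 15.7 CPM. Its log2 ratio was 1.17 (0.37 to 2.05) for CLP over LMPP and 0.72 (0.25 to 1.20) between CLP and pro-B, which was 3.72-fold above LMPP. In cells low in cycle transcripts the ratio of CLP over LMPP was 0.89 (-0.08 to 1.95), below 2-fold and with an interval that spanned 0. Within the cell cycle classes described below, pro-B over CLP was 0.69 (-0.30 to 1.61) in low-cycle cells. It was 0.46 (-0.55 to 1.47) in S and 0.13 (-0.97 to 1.49) in G2/M cells. Pro-B over LMPP in low-cycle cells was 1.58 (0.41 to 2.77). An exon of Fdft1 overlaps Ctsb on the opposite strand, and the use of strand in counting is not stated.

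The rest of the branch showed no common direction. Sqle, the squalene epoxidase, had 14.7, 10.6 and 13.0 CPM, and Cyp51, the lanosterol demethylase, 10.7, 7.54 and 11.1 CPM. Both were lowest in CLP, with intervals that spanned 0 for CLP over LMPP, and an exon of Cyp51 overlaps Akap9 on the opposite strand. Msmo1 and Nsdhl, which act in removing methyl groups from the sterol ring, had 12.7, 11.9 and 12.4 CPM and 10.5, 8.04 and 7.60 CPM, and both pro-B over CLP intervals spanned 0. Hsd17b7, an enzyme of the same steps, had only 5, 10 and 12 UMIs, too few to order the libraries.

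Lss and Tm7sf2 were also thinly counted. Lss, the lanosterol synthase, had 15, 15 and 9 UMIs, or 3.74, 2.51 and 1.22 CPM, and was 2.06-fold lower in pro-B than in CLP with an interval that spanned 0 (log2 -1.04, -2.41 to 0.25). It stayed at least 2-fold lower in 5 of the 8 alternatives that gave it a value, including a lower minimum of UMIs per gene, which could not move it. Tm7sf2, a sterol reductase, had 6, 24 and 15 UMIs, or 1.49, 4.02 and 2.04 CPM, and was 2.69-fold higher in CLP than in LMPP (log2 1.43, 0.10 to 3.01). Exons of Lss overlap an antisense transcript and those of Tm7sf2 overlap Vps51 on the same strand.

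Of the sensing and transport genes, Srebf2 and Insig1 were lower in pro-B and the other 3 had no common direction. Srebf2, whose product is the main activator of cholesterol genes, had 318 LMPP, 546 CLP and 156 pro-B UMIs, or 79.2, 91.5 and 21.2 CPM. The pro-B library was low and the progenitor libraries were high, 4.32-fold between CLP and pro-B (log2 -2.11, -2.38 to -1.85) and 3.74-fold between LMPP and pro-B, while CLP and LMPP differed by a log2 ratio of only 0.21. In cells thinned to 2000 UMIs, 17.1% of LMPP (14.1 to 20.4), 14.8% of CLP (12.5 to 17.2) and 3.64% of pro-B cells (2.60 to 4.95) had an Srebf2 UMI. These are shares of cells with a UMI, and no cell type known to lack the gene was sorted to set a background. The log2 ratio of pro-B over CLP lay between -2.40 and -2.01 in the 9 alternatives run. Those that only changed the minimum UMIs of a gene could not move it.

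Insig1, the sterol-sensing anchor whose gene is itself a target of SREBP proteins, had 17.4, 16.9 and 7.47 CPM. It was 2.27-fold lower in pro-B than in CLP (log2 -1.18, -1.68 to -0.69), but only by a log2 ratio of -0.57 (-1.55 to 0.31) in cells low in cycle transcripts, where pro-B held 13 of its UMIs. Srebf1, whose products act more on fatty acid genes, showed no such drop, with 15.7, 16.1 and 13.6 CPM (pro-B over CLP -0.25, -0.66 to 0.17). Exons of Srebf1 overlap Rai1 on the opposite strand and the microRNA gene Mir6922. Scap had 14.4, 23.6 and 20.6 CPM, so that LMPP was its low library (CLP over LMPP 0.71, 0.26 to 1.18). Stard4, which carries cholesterol between membranes, had 19.2, 10.4 and 17.2 CPM and was lowest in CLP (CLP over LMPP -0.88, -1.39 to -0.38, and pro-B over CLP 0.73, 0.28 to 1.19).

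Of the fatty acid genes, Acly stayed level and Fasn did not. Acly, which makes cytosolic acetyl-CoA from citrate for both pathways, had 37.6, 36.7 and 36.8 CPM, and its log2 ratio of pro-B over CLP was 0.00 (-0.26 to 0.27), or -0.28 with ribosomal and mitochondrial genes left out of the total. Acaca, which makes malonyl-CoA, had 11.2, 9.22 and 7.33 CPM (pro-B over CLP -0.33, -0.90 to 0.24). Fasn, the synthase that builds palmitate, had 92, 170 and 86 UMIs, or 22.9, 28.5 and 11.7 CPM, and was 2.44-fold lower in pro-B than in CLP (log2 -1.29, -1.68 to -0.90). Its pro-B over CLP ratio stayed at least 2-fold lower in all 9 alternatives, but those that only changed the minimum UMIs of a gene could not move it. Fads1 and Fads2, which desaturate polyunsaturated fatty acids, had 9.96, 12.4 and 13.8 CPM and 1.99, 2.51 and 4.07 CPM, with pro-B over CLP intervals that spanned 0. Fads2 had 8 UMIs in LMPP, and its pro-B over LMPP interval spanned 0 too (1.03, -0.13 to 2.37). That ratio stayed at 2-fold or more in 5 of 9 alternatives.

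The stearoyl-CoA desaturases, which make monounsaturated fatty acids, differed from each other. Scd2 had 297, 330 and 155 UMIs, or 74.0, 55.3 and 21.0 CPM, lower at each step of the path, with log2 ratios of -0.42 (-0.65 to -0.19) for CLP over LMPP and -1.39 (-1.68 to -1.11) for pro-B over CLP. Scd1 had 0 UMIs in LMPP and CLP, and 34 UMIs in 30 pro-B cells. With 3 UMIs put in place of 0 (0.503 CPM in CLP and 0.747 in LMPP), its 4.62 CPM in pro-B was 9.18-fold above CLP and 6.18-fold above LMPP. From the counts themselves, the lower ends of the intervals of the log2 ratios were 2.82 over CLP and 2.25 over LMPP. In thinned cells 1.03% of pro-B cells had a Scd1 UMI. The 2 genes are close paralogs that lie near each other on chromosome 19 (GRCm38, Scd2 at 44293674 to 44306864 and Scd1 at 44394455 to 44407879), and reads that fit both could have been split or dropped, so their separate levels are uncertain. Their sum had 74.0, 55.3 and 25.7 CPM, Scd1 made up 18.0% of it in pro-B, and 6 pro-B cells had UMIs of both.

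The populations differ in cell cycle, so each library was divided into cells with 3 or more UMIs of the G2/M list after thinning to 2000 UMIs, cells with 3 or more of the S list but not of G2/M, and cells low in both. G2/M cells made up 3.66% of LMPP, 6.28% of CLP and 53.4% of pro-B, and low-cycle cells 77.8%, 71.9% and 31.7%. In CLP the S cells held more cholesterol enzyme transcripts than the low-cycle cells: early mevalonate enzymes summed to 167 against 82.7 CPM in thinned cells (log2 1.01, 0.55 to 1.47), and sterol branch enzymes to 139 against 92.6 (0.58, 0.10 to 1.06). In pro-B the same ratios were 0.32 (-0.18 to 0.81) and 0.05 (-0.44 to 0.52). Whether the libraries differ in this respect was not tested.

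**Figure D3:**
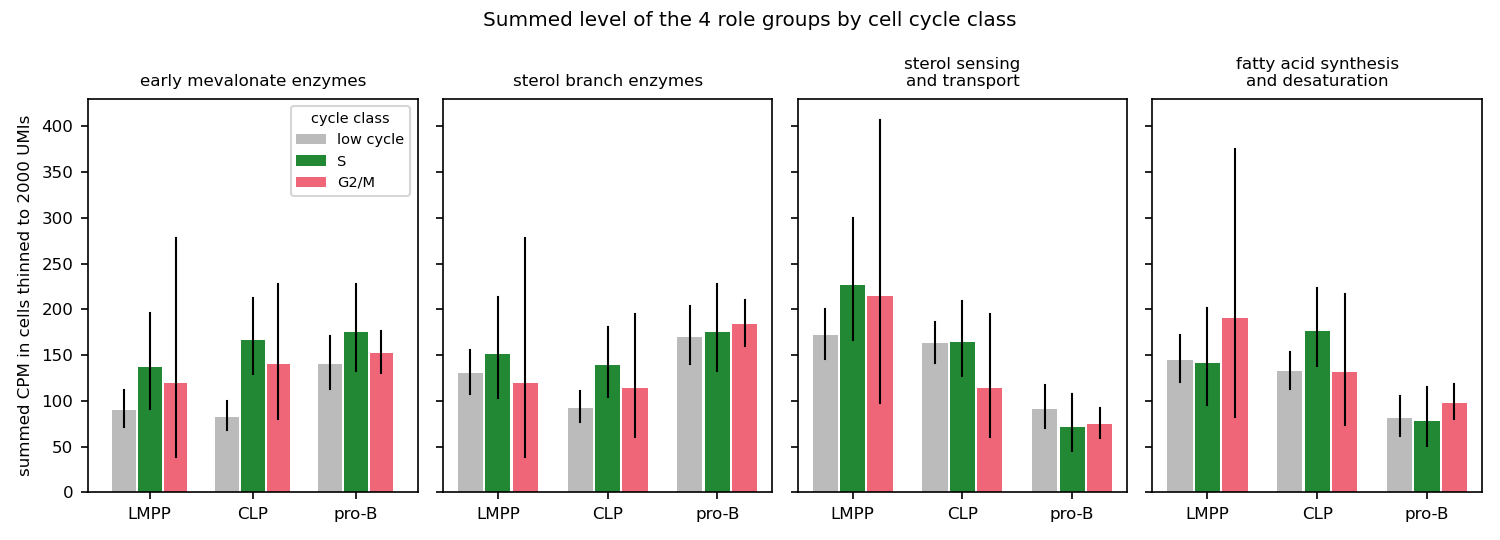
Summed CPM of the 4 role groups in cells thinned to 2000 UMIs, by library and cell cycle class; bars are sums over the cells of a class and lines their 95% Poisson intervals. Low-cycle CLP cells have 82.7 CPM of early mevalonate enzymes against 140 in low-cycle pro-B cells, while the sensing and transport sum, Srebf2 included, is lower in every pro-B class than in the same CLP class.

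Within each class, the summed sensing and transport genes were lower in pro-B than in CLP, while the summed cholesterol enzymes had their highest ratios in low-cycle cells. With all UMIs of the classed cells, early mevalonate enzymes had a pro-B over CLP log2 ratio of 0.82 (0.55 to 1.09) in low-cycle cells, 0.25 (-0.05 to 0.55) in S cells and -0.12 (-0.47 to 0.24) in G2/M cells. Sterol branch enzymes had 0.82 (0.56 to 1.07), 0.33 (0.03 to 0.63) and 0.06 (-0.29 to 0.43). For sensing and transport genes the ratios were -0.63, -1.02 and -0.88, and for fatty acid genes -0.72, -0.55 and -0.73, with all 6 intervals below 0. Without Srebf2 the sensing and transport ratios were 0.37 (0.01 to 0.72), -0.41 (-0.90 to 0.06) and -0.66 (-1.14 to -0.15). In low-cycle cells the other 4 genes together were higher in pro-B, from 94 UMIs there and with an interval that barely cleared 0. None of the ratios within classes was repeated without ribosomal and mitochondrial genes in the total. Among all genes in low-cycle cells, 18.9% were 2-fold or more above CLP in pro-B and 15.5% below, against 13.1% and 21.1% in all cells. Without Scd2 and Fasn the fatty acid ratios were -0.02 (-0.45 to 0.39), 0.04 (-0.40 to 0.47) and -0.42 (-0.89 to 0.07), and all 3 intervals spanned 0. The low-cycle cells of pro-B were shallower, with a median of 3107 UMIs against 6116 in CLP, and the G2/M class of CLP held 57 cells. Differences between the classes were not tested.

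Single genes within the classes gave the same picture for Srebf2 and Scd2. Srebf2 had log2 ratios of -2.01 in low-cycle, -1.97 in S and -1.35 in G2/M cells, and Scd2 had -1.24, -1.50 and -1.12, each with an interval below 0. Fasn had -2.34 in low-cycle cells, from 6 UMIs in pro-B against 104 in CLP, then -0.81 in S and -1.39 in G2/M cells. Mvk was higher in low-cycle pro-B cells by 2.34 (1.45 to 3.26), with 28 UMIs against 19, but its ratio was 0.38 (-0.80 to 1.56) in S cells and 1.73 (-0.17 to 4.81) in G2/M cells, the latter with 2 UMIs in CLP. Ebp had 1.22, 0.87 and 0.35, and only its G2/M interval spanned 0.

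Within the pro-B library some genes differed by class, and those given here were named after their values were seen. Sqle had 3.47 CPM in low-cycle, 17.7 in S and 14.4 in G2/M cells, with log2 ratios over low-cycle cells of 2.35 (0.77 to 4.36) and 2.05 (0.63 to 3.96). Idi1 had 7.81, 20.3 and 16.4 CPM, and Cyp51 had 4.34, 16.8 and 11.6 CPM, both with S and G2/M intervals above 0. For all 3 the low-cycle cells were the low class. Mvk, with 24.3, 12.4 and 14.2 CPM, and Scap, with 33.8, 17.7 and 18.0 CPM, were instead highest in low-cycle cells, and both had G2/M intervals below 0 (-0.78, -1.43 to -0.09, and -0.91, -1.47 to -0.33). In CLP too, Sqle had 6.32 CPM in low-cycle and 18.3 in S cells (log2 1.53, 0.69 to 2.38) and Idi1 9.35 and 19.0 (1.02, 0.26 to 1.77), while Srebf2 was lower in S cells, 75.9 against 101 CPM (-0.42, -0.73 to -0.11).

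CLP hold cells that have and have not begun the B cell program, marked here by Ebf1, a transcription factor that starts it. In thinned CLP, 376 cells had an Ebf1 UMI and 532 had none. Some of the latter may have Ebf1 UMIs in their full counts, so without Ebf1 below means no UMI after thinning. Early mevalonate enzymes summed to 82.4 CPM with and 120 CPM without Ebf1 (log2 -0.55, -1.01 to -0.10), while sterol branch (-0.26), sensing (-0.22) and fatty acid genes (0.05) had intervals that spanned 0. Srebf2 had 74.5 CPM with and 98.7 without (-0.41, -0.90 to 0.08). With all UMIs of the same cells the early mevalonate ratio was -0.45 (-0.71 to -0.20), and that of the sterol branch was -0.28 (-0.52 to -0.05), an interval below 0. The sensing and fatty acid ratios were then -0.08 and 0.01, with intervals that spanned 0, and Srebf2 had -0.16 (-0.42 to 0.10). The cells without Ebf1 included 113 of the dendritic-like and innate-like clusters against 20 among those with it, and 67.1% of them were low in cycle transcripts against 78.7%. The part of these in the difference was not tested. In the dendritic-like cluster of CLP, early mevalonate enzymes had 152 CPM and sterol branch enzymes 155, against 78.6 and 81.8 in the B lineage-like cluster of 191 cells. The other CLP clusters had 75.5 to 184 and 89.3 to 111 CPM. The part of the cell cycle in these differences between clusters was not tested.

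Clustering divided the pro-B cells into 6 clusters, none of which met the rule for a name, and the fatty acid genes were unevenly spread over them. These values are descriptions, since the same cells defined the clusters. In cluster 5, with 58 cells, a median of 13938 UMIs and Mt1, Srm and Myc among its leading genes, Fasn had 39.7 CPM against 1.88 to 14.1 in the other clusters. Scd1 had 12.9 CPM there, from 11 of its 34 UMIs, and 0 UMIs in cluster 4. The same cluster had the lowest values of Mvk (4.67 CPM), Dhcr7 (7.01), Ebp (43.2) and Srebf2 (12.9). For each of these, and for Scd1, the interval overlapped that of the nearest cluster, while that of Fasn did not. Scd2 was nearly even, at 16.1 to 26.5 CPM. In cluster 1, led by the S phase genes Ung, Cdc6 and E2f1, early mevalonate enzymes had their highest sum, 192 CPM, with Fdps at 61.1 and Idi1 at 29.2 CPM. Each of these intervals overlapped that of cluster 4, where the values were 169, 42.6 and 17.1 CPM.

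**Figure D4:**
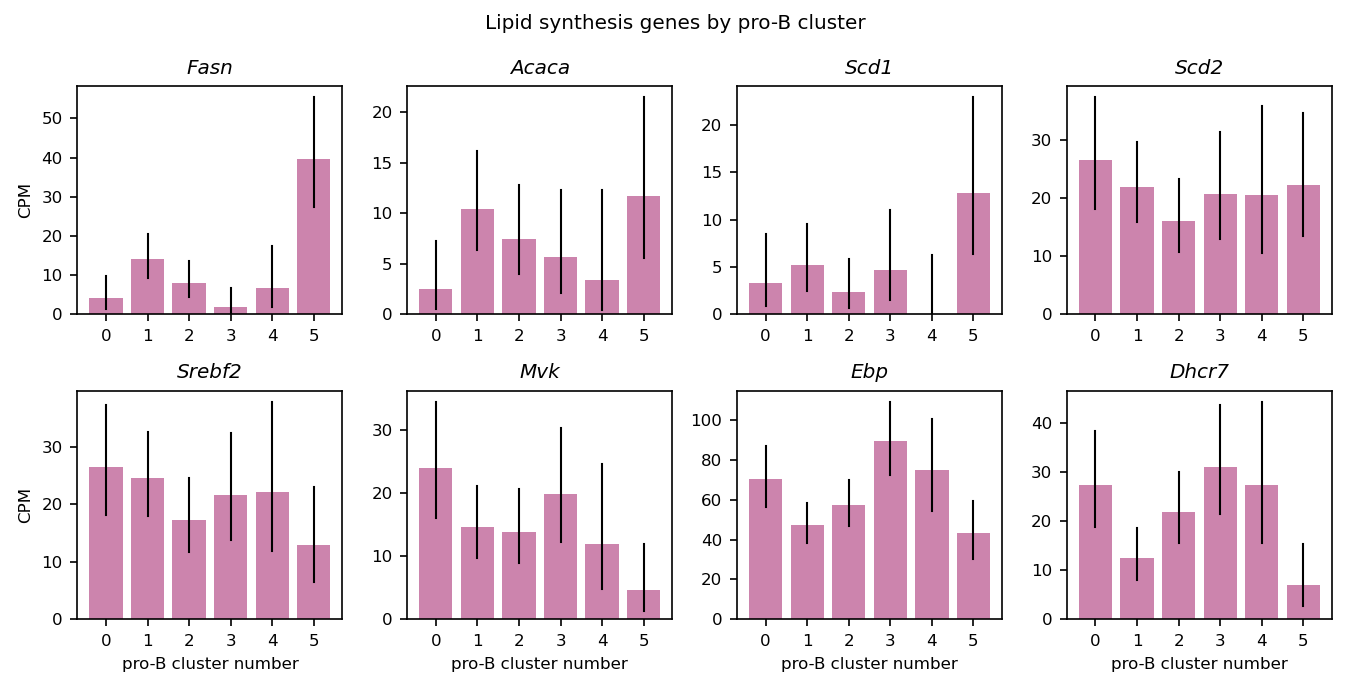
CPM of 8 genes in the 6 pro-B clusters; bars are sums over the cells of a cluster and lines their 95% Poisson intervals, with a separate axis for each gene. Fasn and Scd1 are highest in cluster 5, where Mvk, Dhcr7, Ebp and Srebf2 are lowest. Of these, only Fasn has a cluster 5 interval apart from those of all the other clusters.

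Over single cells the counts were too sparse to show whether the role groups vary together. In cells thinned to 2000 UMIs the variance of a group's UMIs over its mean was 0.97 to 1.35 in the 3 libraries, where 1 is the value of pure counting, the highest being early mevalonate enzymes in CLP. Pearson's r between 2 groups over the 573, 908 or 1070 cells of a library lay between -0.08 and 0.09. Each group held 0.16 to 0.37 UMIs per thinned cell.

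Other genes of the 2 pathways, from lists drawn up alongside the members, were counted in the same way for pro-B over CLP, where 13.1% of all genes were 2-fold or more above and 21.1% below. Of 11 other sterol and isoprenoid genes measured, 2 reached 2-fold above CLP in pro-B (Pdss1 and Pggt1b, named after their values were seen) and 0 reached 2-fold below. Pdss1, which helps make the tail of coenzyme Q, had 4.73, 2.68 and 10.0 CPM, and Pggt1b, a protein prenyltransferase subunit, had 3.49, 3.85 and 7.74 CPM. Coq2, another enzyme of coenzyme Q synthesis, was lower in pro-B, with 71.0, 52.6 and 35.4 CPM (pro-B over CLP -0.57, -0.81 to -0.33). Of 16 genes of sterol regulation, uptake, efflux and storage, 0 reached 2-fold above and 3 reached 2-fold below, with a median of -0.34 against -0.09 over all genes. Npc2, a lysosomal cholesterol carrier, had 278, 330 and 268 CPM, and Nr1h2, the oxysterol receptor LXR beta, 50.6, 54.6 and 69.1 CPM.

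Among 16 measured genes of fatty acid supply, elongation and activation, 0 reached 2-fold above CLP in pro-B (13.1% of all genes did) and 1 reached 2-fold below (21.1% did), Oxsm, a mitochondrial synthase (named after its values were seen), with 9.47, 11.7 and 5.43 CPM. Slc25a1, the carrier that exports citrate from mitochondria for Acly to use, was high in CLP alone, with 130, 504 and 320 UMIs, or 32.4, 84.5 and 43.4 CPM. CLP stood 2.61-fold above LMPP (log2 1.38, 1.10 to 1.67) and 1.94-fold above pro-B. Elovl6, which elongates the palmitate that Fasn makes, was higher in pro-B, with 28.4, 28.2 and 50.4 CPM (pro-B over CLP 0.84, 0.57 to 1.11). Acsl5, an acyl-CoA synthetase, had 60.8, 42.6 and 65.2 CPM, and Tecr, the reductase of the elongation cycle, stayed level at 190, 179 and 172 CPM.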

How the data were processed

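UMI counts per gene and cell were used as deposited for 3 libraries, 1 each of LMPP, CLP and pro-B cells. Per the submitters' processing notes, the authors made the counts with Cell Ranger and the mm10 genome. The version, annotation, cell calling and strand setting are not given in the sources. The 30 genes, the other gene lists and the comparisons were chosen with earlier results of these data known. Cells with under 500 genes or over 10% mitochondrial UMIs were left out, and doublets were kept but called with scrublet in scanpy 1.11.5 (30 LMPP, 14 CLP and 2 pro-B cells). UMIs were summed over cells and divided by the library total (CPM). Ratios carry an exact conditional (Clopper-Pearson) interval of 2 Poisson counts, sums an exact Poisson interval and shares a Clopper-Pearson interval, all at 95% (SciPy 1.17.1). UMIs without replicate libraries give counting error only. A gene with 0 UMIs was set to a limit of 3 UMIs in its library. Thinning drew 2000 UMIs per cell without replacement and left out 6 LMPP, 40 CLP and 36 pro-B cells as too shallow. Clusters were made within each library with the Leiden method (leidenalg 0.10.2, resolution 0.5) and named where 3 or more fixed markers were 4-fold higher. The ratio and interval steps were tested on simulated data. Genes given in full were, per comparison, the 5 highest and 5 lowest ratios, and in each role group the 3 highest CPM. Of each other list the rule picked up to 2 genes with the highest CPM and up to 2 with the largest pro-B over CLP ratio at 20 CPM or more; some of these are not reported here. Positions and exon overlaps come from GENCODE M21, where 30 of 30 symbols matched. It lists an exon overlap for 10 of them, on the opposite strand for 7 and on the same strand for 4. Promoter sequences are from RefSeq, build GRCm38.p6. Protein sequences were not used here.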

Additional observations from a re-analysis of the deposited data

How the results depend on the processing

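For each ratio 9 alternatives were run, and none adds a replicate. Those that only changed the minimum UMIs of a gene, to 1 or to 50, could not move the ratio of a single gene. Leaving ribosomal and mitochondrial genes out of the total moved the median log2 ratio of the 30 genes to -0.18 for pro-B against CLP and 0.017 against LMPP, and the genes at least 2-fold higher in the latter to 2. In low-cycle cells alone the counts higher and lower became 1 and 3 for CLP over LMPP, for which no share over all genes was computed. For pro-B over LMPP they became 7 and 7, against 17.5% and 15.9% of all genes, and the median became 0.074. The count higher became 7 for pro-B over CLP, against 18.9% of all genes in these cells. There Fads2 turned from 1.03 to -0.63 for pro-B over LMPP, from 1 UMI in pro-B. With the dendritic-like and innate-like cells left out, the median for pro-B over CLP was 0.22, with 4 genes higher, and 1 gene was lower in CLP than in LMPP. With only genes of 50 or more UMIs the medians were 0.21 for pro-B against CLP and 0.20 against LMPP, and 1 gene was higher in CLP over LMPP and 1 in pro-B over CLP, since fewer genes were compared. With every cell weighing the same the median for pro-B over LMPP was 0.20. Where a count or median stands without the value over all genes, a shift particular to the 30 genes cannot be read from it. The cause of the other shifts was not tested. Srebf2, Scd2, Fasn, Mvk and Scd1 stayed at least 2-fold apart between pro-B and CLP in all alternatives that gave them a value. Besides that of Fads2, calls lost in low-cycle cells included Fdft1 (CLP over LMPP) and Insig1 (-0.57 over CLP, -0.39 over LMPP). The Sc5d ratio of pro-B over LMPP fell to 0.93 without ribosomal and mitochondrial genes in the total. Using all UMIs in place of thinned ones for the cycle classes was an alternative chosen after seeing the data. So were the sums without Srebf2, or without Scd2 and Fasn, which moved the pro-B over LMPP log2 ratios to -0.18 and 0.13. The limit of 3 UMIs, chosen for genes without a UMI, equals 0.407 to 0.747 CPM in these libraries. No paired analysis was possible because each population has 1 library.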

Other observations

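The same counts were made for 2 lists of neighbouring lipid pathways. Of 15 fatty acid oxidation genes, 4 reached 2-fold above CLP in pro-B, against 13.1% of all genes, and 0 reached 2-fold below, against 21.1%. Their median log2 ratio was 0.49, against -0.09 over all genes, and their summed level was 661, 540 and 854 CPM in the order LMPP, CLP, pro-B (pro-B over CLP log2 0.66, 0.60 to 0.72). The 4 were Etfb, Etfa, Acaa2 and Acadl, the last named after its values were seen. Etfa and Etfb, the subunits of the electron transfer flavoprotein that takes electrons from acyl-CoA dehydrogenases, had 62.3, 58.1 and 127 CPM and 151, 93.5 and 217 CPM. Acaa2, the mitochondrial thiolase of the last step, had 31.1, 17.3 and 38.4 CPM with pro-B 2.23-fold above CLP (log2 1.15, 0.82 to 1.49). Acadm, a medium-chain acyl-CoA dehydrogenase also named after its values were seen, went the other way, with 42.6, 44.4 and 22.8 CPM (-0.96, -1.25 to -0.68). None of these differences has a replicate check. Leaving ribosomal and mitochondrial genes out of the total lowers every pro-B over CLP ratio of both lists by the same amount, as above. The sums of the 2 lists are not given for that total or for low-cycle cells.

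Of 15 measured glycerolipid synthesis genes, 1 reached 2-fold above CLP in pro-B and 3 reached 2-fold below, against 13.1% and 21.1% of all genes, with a median of -0.45 and a summed level of 421, 395 and 268 CPM. Agpat2, which acylates lysophosphatidic acid, had 540, 448 and 92 UMIs, or 134.5, 75.1 and 12.5 CPM, in the order of the B cell path. It was 6.01-fold lower in pro-B than in CLP (log2 -2.59, -2.93 to -2.26), and within low-cycle, S and G2/M cells the log2 ratios were -2.36, -2.63 and -2.49. Lpin2, a phosphatidate phosphatase, had 29.4, 32.8 and 16.7 CPM, while Chka, a choline kinase, stayed level at 44.1, 48.9 and 42.2 CPM. Named after their values were seen, Lpin1 had 58, 56 and 8 UMIs and Pcyt1a, the rate-controlling enzyme of phosphatidylcholine synthesis, 37, 95 and 42. These UMIs are not scaled to the library totals, which rise from LMPP to CLP to pro-B, so their order need not be that of the CPM. Gpam, the mitochondrial acyltransferase that starts glycerolipid synthesis, was the 1 gene higher, with 3, 4 and 71 UMIs, a pro-B over CLP ratio of 14.4 (log2 3.85, 2.43 to 5.76).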
